A study of Mus musculus with 3 samples.

Results

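The loss of Taf4 in pancreatic beta cells, 5 weeks after it was induced, was set against WT through the open chromatin of mouse islets of Langerhans. All ATAC-seq peaks on chromosomes 1 to 19 were taken, 59626 from the WT library and 150230 from the 5-week library, together 209856 of the 362983 peaks listed for the 3 libraries of the series. Each group held 1 library, so counts, shares and ranks are described and no p-value was computed. A difference between the lists cannot be told apart from a difference between 2 libraries, and no gene, group or motif below has a replicate error. Wilson 95% intervals, given for shares of peaks, cover counting error only.

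Both libraries came from cells of purified islets, dissociated with Accutase, of mice whose strain is labelled C5LBl6. The WT library is labelled with the wild type genotype and no time. The 5-week library is labelled Taf4 KO. In the study's model, Taf4 alleles flanked by lox sites are deleted by Cre-ERT2, a recombinase that acts after tamoxifen injection, under the Ins1 promoter. Deletion is thus limited to beta cells, and the alpha, delta and other cells of the islet keep the gene. Fewer cells of a type and less accessible chromatin per cell cannot be told apart in these bulk lists. The study's methods describe controls that carry Taf4+/+ with the same Cre and received tamoxifen as well. The library taken 1 week after deletion in the same model is given only as a value beside single loci, since its comparison would share the WT list.

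Taf4 is a subunit of TFIID, the general transcription factor that recognises core promoters and helps RNA polymerase II start transcription. Its partner Taf12 pairs with it, and Taf4b is a paralogue. ATAC-seq cuts chromatin where a transposase can reach the DNA, so promoters and enhancers appear as peaks. Beta cells hold open the enhancers of Ins1, Ins2, Iapp and of the factors Pdx1, Nkx6-1 and Mafa, whereas housekeeping genes mostly start from CpG-rich promoters that are open in nearly every cell type. AP-1, a dimer of Fos and Jun proteins, binds the letters TGAGTCA or their complement TGACTCA, often in enhancers that respond to signals.

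The sequences below carry the main distal and promoter results. The first 4 are the strongest WT peaks away from promoters that held AP-1 letters and had no 5-week peak. Each line gives the 300 bp around the midpoint of the peak, plus strand, mm9, with every match to TGANTCA in capitals.
Swap70, intergenic, chr7:117431758-117432057: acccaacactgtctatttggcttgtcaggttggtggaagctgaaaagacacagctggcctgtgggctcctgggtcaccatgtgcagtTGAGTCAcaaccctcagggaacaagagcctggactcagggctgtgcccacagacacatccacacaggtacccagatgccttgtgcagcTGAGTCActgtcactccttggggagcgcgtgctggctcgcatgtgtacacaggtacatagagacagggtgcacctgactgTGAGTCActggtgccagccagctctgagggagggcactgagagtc
Cyp2g1, intergenic, chr7:27585138-27585437: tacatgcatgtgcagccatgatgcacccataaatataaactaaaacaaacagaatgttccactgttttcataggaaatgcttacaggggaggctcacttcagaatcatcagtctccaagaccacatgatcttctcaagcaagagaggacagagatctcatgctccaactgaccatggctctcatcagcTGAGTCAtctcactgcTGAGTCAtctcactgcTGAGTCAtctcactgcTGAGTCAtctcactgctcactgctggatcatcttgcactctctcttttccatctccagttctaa
Dgkg, intronic, chr16:22602542-22602841: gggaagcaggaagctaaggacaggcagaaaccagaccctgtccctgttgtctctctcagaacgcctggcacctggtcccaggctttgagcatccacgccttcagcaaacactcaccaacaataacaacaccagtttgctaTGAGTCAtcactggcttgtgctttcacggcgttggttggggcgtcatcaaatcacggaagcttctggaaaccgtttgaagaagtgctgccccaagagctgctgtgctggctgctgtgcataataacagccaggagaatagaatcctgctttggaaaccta
Ptrh2, exonic, chr11:86505027-86505326: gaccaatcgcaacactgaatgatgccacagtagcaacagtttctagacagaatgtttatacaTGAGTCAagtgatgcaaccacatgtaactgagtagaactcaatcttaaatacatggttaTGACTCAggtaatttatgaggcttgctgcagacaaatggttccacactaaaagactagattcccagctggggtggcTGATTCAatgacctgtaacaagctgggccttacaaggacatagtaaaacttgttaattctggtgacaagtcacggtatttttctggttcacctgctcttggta

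The gene in each line is the one with the nearest start, and exonic, intronic and intergenic refer to any annotated gene. The Cyp2g1 window held 4 matches, the Swap70 and Ptrh2 windows 3 each and the Dgkg window 1.

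The next line is a peak found at 5 weeks with no WT peak. It lies 14673 bp upstream of Scg2, which encodes the granule protein secretogranin II, and was chosen after its values were seen. It held no match to TGANTCA, to the homeodomain letters TAATTA or to the HNF1 letters TTAATNATT. These were in 9.29%, 11.8% and 3.84% of the 2604 distal windows called firmly gained below, the class of this peak. In all promoter windows of this length the shares were 6.80%, 4.81% and 1.33%.
Scg2, intergenic, chr1:79451188-79451487: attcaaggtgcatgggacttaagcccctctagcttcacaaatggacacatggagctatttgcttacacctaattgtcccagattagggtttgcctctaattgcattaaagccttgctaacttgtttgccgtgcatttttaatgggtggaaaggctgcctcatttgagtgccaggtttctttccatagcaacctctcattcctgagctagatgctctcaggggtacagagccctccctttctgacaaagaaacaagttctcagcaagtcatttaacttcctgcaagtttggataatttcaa

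The last pair are promoters, from 250 bp before to 50 bp after the start, on the strand of the gene and with CpG in capitals. Iapp, the gene of islet amyloid polypeptide, moved up in rank and is CpG-poor, with 4 CpG. Gtf2f1, which encodes a subunit of the general factor TFIIF, moved down and holds 25 CpG. The median over all 21410 promoters of this length was 12, and 20 over those called in both lists.
Iapp, chr6:142246693-142246992, plus strand: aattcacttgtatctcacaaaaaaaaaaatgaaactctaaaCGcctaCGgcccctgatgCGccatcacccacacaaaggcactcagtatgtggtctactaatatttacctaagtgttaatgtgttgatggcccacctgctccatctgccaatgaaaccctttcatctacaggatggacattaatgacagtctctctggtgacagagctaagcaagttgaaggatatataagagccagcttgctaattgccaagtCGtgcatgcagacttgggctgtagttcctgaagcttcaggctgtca
Gtf2f1, chr17:57150674-57150973, minus strand: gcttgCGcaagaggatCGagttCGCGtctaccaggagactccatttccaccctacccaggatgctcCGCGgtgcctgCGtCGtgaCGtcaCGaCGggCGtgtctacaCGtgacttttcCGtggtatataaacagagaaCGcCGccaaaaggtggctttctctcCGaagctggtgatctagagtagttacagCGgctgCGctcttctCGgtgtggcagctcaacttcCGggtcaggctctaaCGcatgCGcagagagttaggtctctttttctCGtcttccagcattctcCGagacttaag

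The 5-week list was longer and deeper. Its peaks covered 104 Mb against 38.6 Mb in WT, and the background depth recovered from the caller's fold and p was 9.38 reads against 3.66, a ratio of 2.57. The lowest -log10 q was 1.02 in WT and 1.01 at 5 weeks. Strength was therefore compared only as rank within a list, and -log10 q values of the 2 lists, where given side by side, are not on a common scale. Presence was read with the depth in view, because a deeper library finds weaker peaks. Promoter peaks of the beta cell markers Ins1, Ins2, Iapp, Pdx1, Nkx6-1, Mafa and Ucn3 were in both lists. That of Slc2a2, another marker, was in WT only, with a -log10 q of 2.15. The Ins1 promoter stood at 25.3 on the -log10 q scale in WT and at 40.0 after 5 weeks, percentiles 98.0 and 99.9 of the lists. The Ins2 promoter had 5.48 and 8.59. Over all 21410 genes the WT list gave 12793 promoter calls and the 5-week list 14254, and 19.7% of those uncalled in WT were gained. Promoter peaks were found at 4 of 14 endothelial marker genes in the WT list and at 11 of them in the 5-week list. The acinar list of 22 genes had 2 and 4, the stellate list of 13 had 2 and 8, and the immune list of 20 had 3 and 5. The share of these cells in each preparation was not tested.

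The clearest difference concerned distal peaks, those outside the window from 1000 bp upstream to 100 bp downstream of a protein-coding start. WT peaks that had no counterpart at 5 weeks carried AP-1 letters more often than kept peaks above the same rank. Of 47116 distal WT peaks, 11790 overlapped no 5-week peak, a share of 25% (24.6 to 25.4). Most of these were weak, with a median -log10 q of 1.80 against 3.89 for shared peaks. A distal peak is called firmly lost when it also lay above percentile 50 of the WT list, a -log10 q of 3.71 or more, and 731 did, which is 1.55% of all distal WT peaks.

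Of these 731 windows, 247 held TGANTCA, which is 33.8% (30.5 to 37.3). Among 18505 distal WT peaks that were above percentile 50 and shared, 2802 held it, which is 15.1% (14.6 to 15.7). The intervals do not overlap. Over all WT peaks the share was 11.8%, and over all 5-week peaks 9.70%. When peaks had to overlap reciprocally by 50% to count as shared, 3719 were firmly lost and 19% (17.8 to 20.3) of them held the letters, against 15.1% (14.5 to 15.7) of shared windows. Of the other short motifs searched on both strands, some differed between the groups and some did not. The E-box CAGATG, which NeuroD1 binds, was in 30.9% of firmly lost and 32.1% of shared windows. The forkhead letters TGTTTAC were in 11.2% (9.13 to 13.7) and 10.1% (9.64 to 10.5). The homeodomain letters TAATTA were in 8.07% and 9.0%.

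For 4 others the intervals did not overlap. The GC box GGGCGG was rarer among firmly lost windows, at 3.15% (2.11 to 4.68) against 11.2% (10.7 to 11.6). The HNF1 letters TTAATNATT were in 1.09% (0.556 to 2.14) against 2.47% (2.26 to 2.70). The E-box CAGCTG was in 21.5% (18.7 to 24.6) against 26.7% (26.0 to 27.3). The letters AAGATGGC of YY1, a zinc finger factor of promoters, were in 3.01% (2.0 to 4.51) against 1.40% (1.24 to 1.58). GC content of the windows differed little, with medians of 47.3% and 49.7%.

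**Figure D1:**
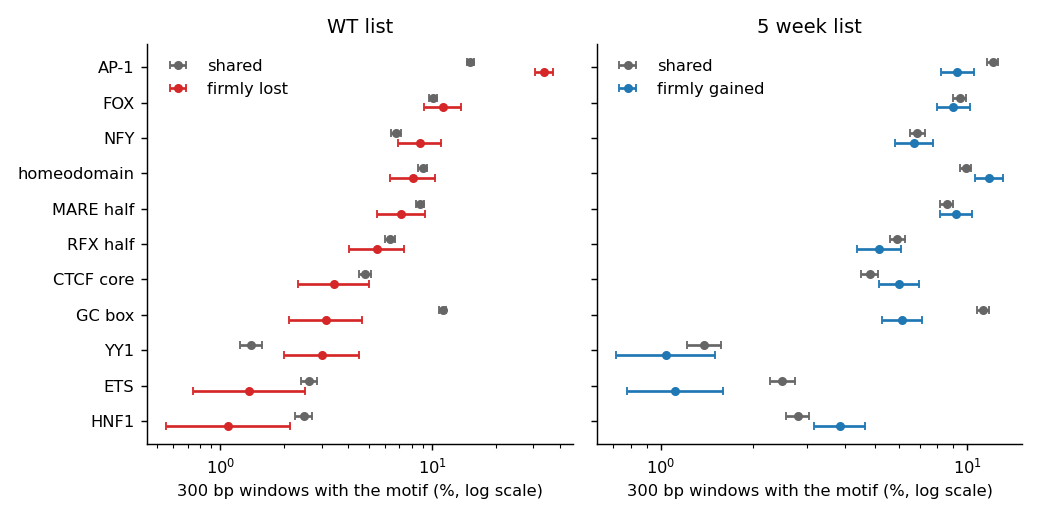
Share of 300 bp windows that hold a short motif on either strand, on a log axis, with Wilson 95% intervals. On the left are distal WT peaks above percentile 50, shared (grey) or firmly lost (red). On the right are the strongest distal 5-week peaks, shared (grey) or firmly gained (blue). AP-1 stands at 33.8% in firmly lost against 15.1% in shared windows, and at 9.29% in firmly gained windows. E-boxes and NRF1 are left out of the plot.

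The excess followed the number of AP-1 sites. Among distal WT peaks above percentile 50, 484 of 16187 windows with no site were lost, 2.99% (2.74 to 3.26). With 1 site, 182 of 2677 were lost, 6.80% (5.91 to 7.82), and with 2 or more sites 65 of 372 were lost, 17.5% (14 to 21.7). Split by WT strength, the intervals did not overlap between percentiles 25 and 90. Between 25 and 50, 33.4% (31.3 to 35.6) of windows with the letters were lost against 22.0% (21.2 to 22.7) without. Between 50 and 75 the shares were 11.7% (10.3 to 13.2) and 4.2% (3.83 to 4.60). Between 75 and 90 the shares were 3.32% (2.32 to 4.73) and 1.05% (0.789 to 1.41). Below percentile 25 they were 57.5% (55.1 to 59.9) and 55.0% (54.1 to 55.8). Above percentile 90, 2 of 322 and 1 of 1477 were lost. In these outer groups the intervals overlapped.

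**Figure D2:**
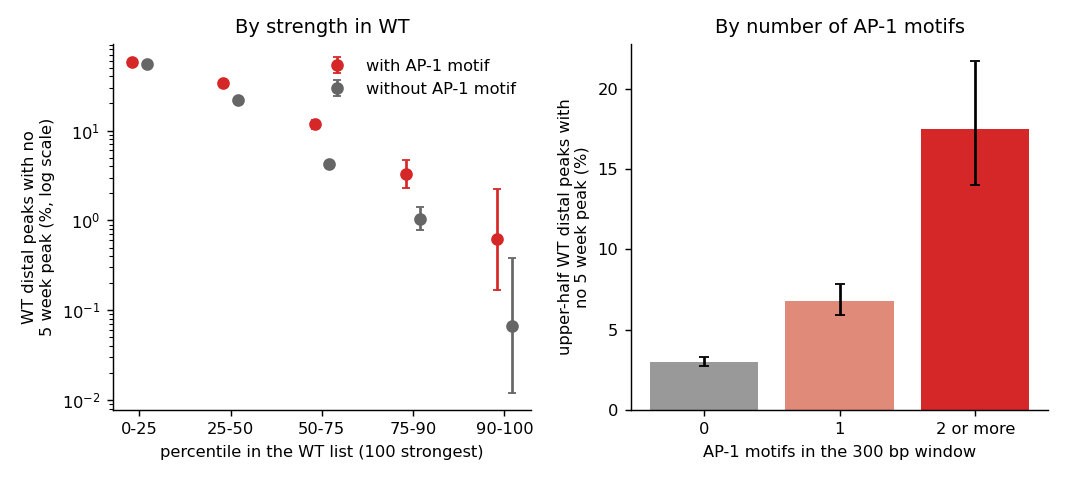
Share of distal WT peaks with no 5-week peak, with Wilson 95% intervals. On the left, peaks with (red) or without (grey) AP-1 letters are split by percentile in the WT list, on a log axis, and the shares are 11.7% and 4.2% between percentiles 50 and 75. On the right, peaks above percentile 50 are split by the number of AP-1 sites in their 300 bp window, and the share climbs from 2.99% with none to 17.5% with 2 or more.

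The same held in each part of the genome that was looked at. In each of 5 groups of windows by GC content, loss of peaks above percentile 50 was more frequent with AP-1 letters, from 10.5% (8.49 to 12.9) against 4.98% (4.27 to 5.8) in the most AT-rich group to 5.28% (3.40 to 8.10) against 1.41% (1.06 to 1.85) in the most GC-rich. In introns the shares were 7.39% (6.17 to 8.82) and 2.99% (2.64 to 3.40), and in intergenic sequence 8.5% (7.17 to 10.1) and 3.08% (2.71 to 3.50). The share was higher with the letters on 19 of 19 chromosomes. All windows come from 1 library a group, so these splits are not replicates.

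The letters of the AP-1 site itself carried most of it. TGACTCA, read on either strand, was in 29.3% (26.1 to 32.7) of firmly lost and 11.0% (10.6 to 11.5) of shared windows above percentile 50. The related letters TGAATCA were in 7.39% (5.71 to 9.51) against 4.77% (4.47 to 5.08). The CRE letters TGACGTCA were in 0.410% (0.140 to 1.20) against 0.713% (0.602 to 0.845). This split was made after the share for the forms together had been seen.

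Shared distal peaks with AP-1 letters also tended to stand lower at 5 weeks. When the 35326 shared distal WT peaks were ranked in each list, the 4715 with the letters had a median shift of -4.9 percentile points against -0.1 over all. Of them, 21.0% moved down by 25 points or more and 9.88% moved up, against 12.8% and 13.1% over all. The opposite lean was small and was seen for windows with HNF1 letters, with a median of 2.6 and 15.4% moving up.

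Sequence repeated in the genome also marked the lost peaks, and it was mostly not the sequence with AP-1 letters. In 86 of the 731 firmly lost windows, 11.8% (9.63 to 14.3), 50% or more of the 32-base words occurred more than once in the mm9 genome file. This was so for 8 of 926 shared windows, 0.864% (0.438 to 1.70), taken as every 20th of the shared peaks above percentile 50, and for 42 of 2604 firmly gained windows, 1.61% (1.20 to 2.17). Of the 86, only 9 held AP-1 letters. Without them the AP-1 share was 36.9% (33.3 to 40.7) of 645. The strongest firmly lost peak of all, in an intron and nearest to D5Ertd579e with a -log10 q of 17.7, was of this repeated kind. So were those nearest to Mllt3 at 14.1 and Tspan3 at 14.1.

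Of the strongest lost peaks in single-copy sequence that held AP-1 letters, that near Swap70 had a -log10 q of 15.5. It lay 66691 bp downstream of the start. Swap70 encodes a signalling protein of membrane ruffling. The peak near Cyp2g1, a cytochrome P450 gene, had 15.2. Those nearest to Dgkg, a diacylglycerol kinase, and Ptrh2, a peptidyl-tRNA hydrolase of mitochondria, both had 12.9. None of these 4 overlapped a 1-week peak. The intronic peak nearest to Atp11a, which encodes a phospholipid flippase, had 9.48, and that near Acsl3, an acyl-CoA ligase, had 9.0. Both were also absent at 1 week. Of the 10 strongest firmly lost peaks 4 held AP-1 letters, and of the 60 strongest 22 did. The strongest single-copy peak without them, nearest to L3mbtl4, had 13.8 and overlapped a 1-week peak.

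By gene, the firm losses were scattered. Distal peaks were given to the nearest start within 100 kb, and 552 genes had a firmly lost peak. No gene had more than 3. Acsl3 had 3 of its 4 WT distal peaks firmly lost, while its promoter stood at 16.4 in WT and 24.3 at 5 weeks, and 1 peak was firmly gained. 9230019H11Rik also had 3 of 4. Adora2b, an adenosine receptor gene, had 2 of 8, and Gpr132, a receptor for oxidised lipids, had 2 of 5. Nefl, a neurofilament gene, had 2 of 5. Of 3527 genes with at least 4 distal WT peaks, 543 had 50% or more of them lost, firmly or not, which is 15.4%, and 11 had all of them lost.

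The genes that encode AP-1 itself kept their promoter calls, as nearly all genes did. All 10 genes of the immediate early list, which the cell induces within minutes of a stimulus, had a promoter peak in both lists. Over all genes 233 of 12793 WT promoter calls were lost, 1.82%, so this count is not particular to the list. The Fos promoter had a -log10 q of 9.71 in WT and 13.2 at 5 weeks, a shift of 7.6 points, and 1 of its 8 distal WT peaks was lost. The Jun promoter had 7.33 and 10.2, with 2 of 9 distal peaks lost. Fosl2 had 7.38 and 10.3, and Fosb had 6.69 and 10.5. Jund and Junb went the other way. Jund had 15.7 and 13.2, a shift of -20.0, and Junb had 8.11 and 6.97, a shift of -14.8. Ier2, an immediate early gene of unrelated sequence, was the only member to move by 25 points or more, from 10.6 to 5.21, a shift of -32.8 points, and 5 of its 9 distal peaks were lost. Atf3, a stress-induced partner of Jun, kept its promoter at 11.4 and 13.0, and 3 of its 4 distal WT peaks were lost. No member had a firmly lost distal peak within 100 kb, and over the list 11 of 33 were lost, 33.3% against 25.5% over all genes.

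Gained distal peaks had other features. At 5 weeks 101058 of 135880 distal peaks, 74.4% (74.1 to 74.6), overlapped no WT peak, with a median -log10 q of 1.85 and a median distance of 92600 bp to the nearest start. These were mostly intergenic, at 64.5%, and 48.1% lay beyond 100 kb from a start. A peak is called firmly gained when it also lay among the strongest 5-week peaks, as many as make up the part above percentile 50 of the WT list, a -log10 q of 7.55 or more. There were 2604, or 1.92%. They were narrower than shared distal peaks above the same minimum, with a median width of 380 bp against 663 bp, and 51.5% were intronic. Strength was not matched further, and their median -log10 q was 9.47 against 12.7.

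Firmly gained windows held AP-1 letters less often than shared windows above the same minimum, at 9.29% (8.24 to 10.5) against 12.1% (11.6 to 12.6). Homeodomain letters were in 11.8% (10.6 to 13.1) against 9.88% (9.44 to 10.3), and HNF1 letters in 3.84% (3.17 to 4.65) against 2.80% (2.56 to 3.05). The core letters of CTCF, which anchors chromatin loops, were in 5.99% (5.14 to 6.97) against 4.80% (4.49 to 5.13). The E-box CACGTG, bound by Myc, Arnt and clock factors, was in 3.11% (2.51 to 3.85) against 5.64% (5.31 to 6.0). The GC box was in 6.14% (5.29 to 7.13) against 11.3% (10.8 to 11.8).

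Of distal 5-week peaks given to a gene, 1930 of 80550 were firmly gained, and genes with many distal peaks can hold more of them. Elmo1, which activates Rac, had 7, the most of any gene, with 15 distal peaks in WT and 31 at 5 weeks. Pde4d had 20 and 50. Dst, a cytoskeletal linker, Gramd1b, a sterol transporter, Pde4d, a cAMP phosphodiesterase, Phactr1, an actin regulator, and Rgs7, a regulator of G protein signalling, had 4 each. Over all genes 1649 had at least 1. In the beta cell lists, G6pc2, the islet glucose-6-phosphatase, had 2, and Scg2 had 1 with a -log10 q of 25.3, at percentile 98.2. A peak at 5 weeks also lay in an intron 24094 bp upstream of Mafa, at chr15:75602056-75602836, with 11.1. These last peaks near Scg2 and Mafa overlapped a 1-week peak. The strongest gained peak of all, 88700 bp from Axin2, had 97.1, and that in an intron near Cdk8 had 86.8. Both were also present at 1 week. Fewer than 1% of their words occurred more than once in the genome file, and whether the sequence has copies missing from that file was not tested. The next, near H2-M10.4 and Akr1c21, with 60.1 and 42.8, lay in repeated sequence, with 99.3% and 68.8% of words in more than 1 copy, and were absent at 1 week.

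Promoters changed less in presence than distal peaks. Of 12793 genes with a promoter peak in WT, 233 had none at 5 weeks, which is 1.82% (1.60 to 2.07). Of 8617 without one in WT, 1694 had one at 5 weeks, which is 19.7% (18.8 to 20.5). With the 5-week list cut to the length of the WT list, 590 were lost and 587 gained, and with the 5-week list scaled to the background depth of WT 819 were lost and 416 gained, so the direction of the net change depended on depth. Losses were most frequent at CpG-poor starts and gains at the CpG-richer of the starts not called in WT. In 5 groups of WT-called genes by CpG within 500 bp of the start, 6.14% (5.27 to 7.13) were lost in the CpG-poorest and 0.469% (0.268 to 0.818) in the CpG-richest. In 5 groups of uncalled genes, 10.7% (9.36 to 12.3) were gained in the poorest and 40.6% (38.3 to 42.9) in the richest, whose median was 4.1 CpG per 100 bp.

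Losses were mostly of weak WT promoter peaks. Below percentile 10 of the WT list 42.9% (37.2 to 48.8) of promoter peaks were lost. Above percentile 80 the counts were 0 of 2794 and, above 90, 0 of 4164, with Wilson upper bounds of 0.137% and 0.0922%. Of lost promoter peaks that no 5-week peak overlapped, the strongest was that of Gm10720, with a -log10 q of 9.46. It was followed by Cwf19l1, a splicing-related gene, with 7.11, and Gon4l, a nuclear cofactor, with 6.87. Eif4enif1, the transporter of the cap-binding factor eIF4E, had 6.04, and Gsta1, a glutathione transferase, had 6.02. Among beta cell genes, lost calls were weak ones. The Foxa1 promoter, of a pioneer factor, had 1.37 in WT and no 5-week peak. The promoter of Slc2a2, the glucose transporter of beta cells, had 2.15 in WT and no 5-week peak. Yet its strongest distal WT peak, 15820 bp upstream, had 17.6 in WT and 24.9 at 5 weeks, percentiles 93.0 and 98.0. Of its 11 distal WT peaks, 9 were shared.

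Gained promoters included stronger peaks. Zfand6, a zinc finger gene, had 31.1 at 5 weeks and no WT peak, Zmat4, another zinc finger gene, had 22.3, and Timp3, an inhibitor of matrix proteases, had 16.5. All 3 were present at 1 week, with 24.4, 13.0 and 5.8. Kat2a, a histone acetyltransferase, had 13.7 at 5 weeks and no 1-week peak. In the beta cell lists, Nkx2-2, an islet homeodomain factor, had 5.12, Trpm5, a cation channel, 4.69, and Kcnj11, a subunit of the potassium channel closed by ATP, 2.89, all with no WT promoter peak. The Kcnj11 peak of 4332 bp at 5 weeks overlapped a WT peak that lay outside the window. In the alpha cell list Gcg, which encodes glucagon, had 7.14 at 5 weeks. Its 5-week peak of 1831 bp reached a WT peak that lay 1504 bp upstream, outside the window, with 7.49 in WT. In the delta cell list of 10 genes, 4 had a call in WT and 10 at 5 weeks. Gains were 6 here, 7 in the endothelial and 6 in the stellate list, so they were not particular to delta cell genes. Sst, which encodes somatostatin, was among the gained, with 1.33.

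Rank told promoters apart more finely. Single promoters moved far, among them those of Iapp, Mafa and Nkx6-1 upward and of Taf9, Gtf2f1 and Psmd2 downward. For the 12560 genes called in both lists, the strongest promoter peak was ranked among those genes in each list, from 0 to 100. The median absolute shift was 9.6 points, and the Spearman correlation across genes was 0.815, where genes share 2 libraries and are not replicates. A shift of 25 points or more down was seen in 906 genes, 7.21%, and up in 964, 7.68%. The strongest peaks compared did not overlap in 8 and 36 of these. With percentiles of the whole list in place of ranks among these genes, 15 moved down and 1483 up, and promoter peaks had a median percentile of 82.9 in WT and 88.3 at 5 weeks.

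Each list of genes is read against genes of like WT rank, because a gene near the top cannot move up. Of 5 groups by WT rank, in that with a median of 30.0, 15.6% moved up and 1.91% down. The median shift of that group was 3.4. In that with a median of 10, 9.59% moved up, 0% down and the median was 2.4. In that with a median of 70.0, 2.79% moved up and 13.2% down, with a median of -2.9. An excess of up moves in a list of low rank, or of down moves in one of high rank, is thus background only up to about these shares.

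Of 26 beta cell secretion genes called in both lists, 7 moved up and 1 moved down, with a median shift of 5.1 points and a median WT rank of 30.7. The Iapp promoter had a -log10 q of 6.80 in WT and 20.2 at 5 weeks, 12.2 at 1 week, and moved from rank 23.4 to 73.6. Prlr, the prolactin receptor gene, went from 5.72 to 18.0, a shift of 46.9 points. Ffar1, the fatty acid receptor that boosts insulin release, went from 8.77 to 20.7, a shift of 42.9. The granule genes Scg2, with 9.66 and 19.6, and Chgb, with 11.5 and 19.7, moved by 34.9 and 26.3. Rab3a, a granule GTPase, went from 9.52 to 19.8, a shift of 36.0. Syt7, a calcium sensor of exocytosis, went the other way, from 19.6 to 12.9, a shift of -34.8. Ins1, at rank 90.8 in WT, shifted by 7.9 points and Ins2 by 3.8.

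Of 18 beta cell factors in both lists, 3 moved up, 1 moved down and the median shift was -2.7, which turned to 7.5 at a -log10 q minimum of 5 and to 0.3 with a wider promoter window. The Mafa promoter, of the factor of mature beta cells, had 7.12 in WT, 6.20 at 1 week and 24.4 at 5 weeks, a shift of 60.1 points. Its WT peak of 1681 bp ran across the start, and the 5-week peak of 777 bp lay upstream of it. Nkx6-1 went from 8.42 to 17.9, a shift of 34.6, between promoter peaks of 2974 bp in WT and 1076 bp at 5 weeks. Of its 12 WT distal peaks, 12 were kept. Rfx6, an islet factor, went from 8.08 to 17.7, a shift of 35.2, but between peaks that did not overlap. Foxa2 went from 10.8 to 6.87, a shift of -28.1. Pdx1 had 10.3 and 9.77, a shift of -12.5. The factors as a group did not share a direction.

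Alpha cell and calcium genes stood low in WT, where up moves were the more frequent over all genes. Of 10 alpha cell genes called in both, 3 moved up and none down, with a median WT rank of 18.8 and a median shift of 9.0, or 4.0 with the wider promoter window. Gc, a vitamin D-binding protein abundant in alpha cells, went from 2.29 to 16.5, a shift of 55.4. Etv1, an ETS factor, went from 7.99 to 22.9, a shift of 53.0 between peaks that did not overlap, and Ttr, transthyretin, from 4.86 to 14.4, a shift of 34.7. Of 20 calcium signalling genes, 4 moved up and none down, near the 15.6% of genes of like rank. Their median shift of 6.4 was 1.9 with the wider promoter window. Cacna1g, a T-type calcium channel gene, went from 3.86 to 26.2, a shift of 76.8, and 4.61 at 1 week. Cacna1c, the L-type channel of beta cells, went from 4.21 to 13.2, a shift of 31.5. Atp2b2, a calcium pump, went from 4.32 to 13.2, a shift of 31.3. Camk2b, a calmodulin kinase, went from 5.79 to 16.8, between peaks that did not overlap.

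The TFIID subunit genes as a list stood near the background in the count of moves, but not in the median shift. Of 15, 2 moved down and 1 up, close to the 13.2% down among genes of like rank. The median shift was -10.8, while the median rank was 62.5 in WT and 67 at 5 weeks. The Taf4a promoter, whose peak does not check the deletion, had 8.53 in WT and 8.01 at 5 weeks, a shift of -12.3. Taf4b had 23.3 and 24.5, and Taf12 had 15.4 and 18.5, shifts of -2.3 and 4.2. The largest move of the list was the promoter that Taf9 shares with Rad17, a checkpoint gene, from 19.9 to 7.27, a shift of -63.0. Taf5 went from 16.7 to 13.0, a shift of -25.3. Taf10 went from 12 to 32.2, a shift of 47.2. Of 17 genes for the other general factors, 5 moved down and 1 up, with a median shift of -13.0 and a median rank of 63.7 in WT and 48.7 at 5 weeks. Gtf2f1 went from 18.4 to 9.80, a shift of -46.5, and Gtf2f2, the other TFIIF subunit, from 12.6 to 6.53, a shift of -38.5. Cdk7, the kinase of TFIIH, shifted by -34.5, and Gtf2h4, another TFIIH subunit, by 26.9.

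Other housekeeping groups, which also stood high in WT, are read against the 13.2% of genes that moved down and the median shift of -2.9 at like rank. Of 24 proteasome genes 6 moved down and 1 up, with a median of -7.2, or -3.3 at a -log10 q minimum of 5 and -4.5 with the wider promoter window. Psmd2 went from 20.5 to 11.0, a shift of -46.8, and Psma2 from 33.0 to 14.7, a shift of -46.5, whereas Psmb6 went from 9.59 to 24.9, a shift of 49.6. Of 15 spliceosome genes 3 moved down and none up, with a median of -6.4, among them Srsf2, a splicing factor, from 16.9 to 9.91. Of 24 respiratory chain genes 6 moved down and 1 up, with a median shift of -3.2, near the background, or 0.7 at a -log10 q minimum of 5, and a median rank of 73.7 in WT and 74.2 at 5 weeks. Sdha, of complex II, went from 22.4 to 13.0, a shift of -41.9, and Atp5a1, of the ATP synthase, from 13.3 to 6.93, a shift of -40.6. Of 12 clock genes 1 moved down, a share no higher than the background, and this was Clock, from 19.6 to 14.6. The median of the clock list was -11.1.

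**Figure D3:**
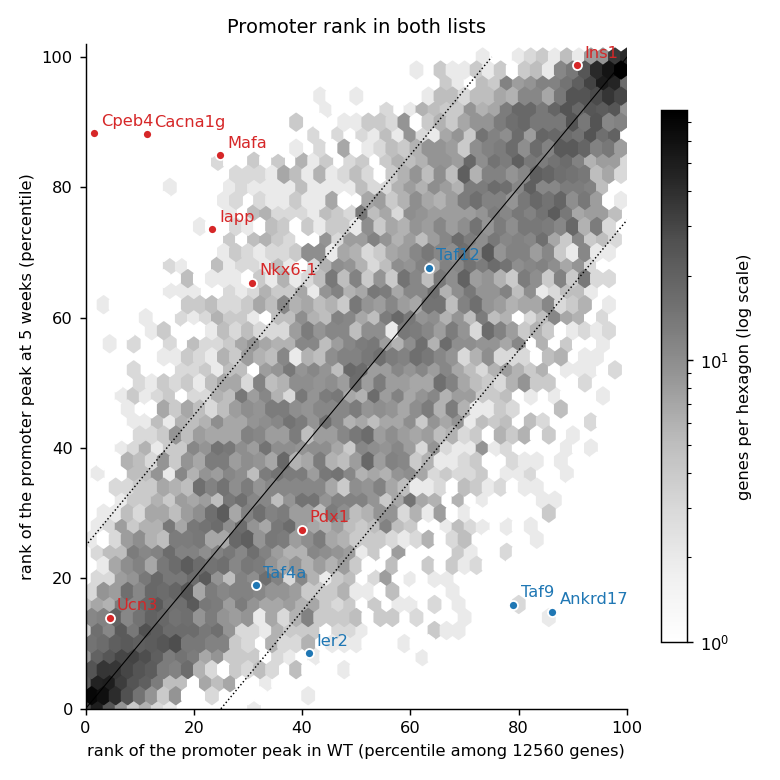
Rank of the strongest promoter peak of 12560 genes in WT (x) and at 5 weeks (y), as percentiles among these genes, with darker hexagons holding more genes on a log scale. The solid line marks equal rank and the dotted lines 25 points. Mafa, Iapp and Nkx6-1 lie above the upper dotted line with shifts of 60.1, 50.1 and 34.6 points, and Taf9 and Ankrd17 lie far below the lower one.

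Over all genes the shift in rank followed CpG content, in groups that were not matched for WT rank. In the CpG-poorest of 5 groups, with a median of 2.5 CpG per 100 bp, the median shift was 4.3 points, 13.8% moved up and 3.18% down. In the CpG-richest, with a median of 10.4, the median shift was -4.3, 3.18% moved up and 10.2% down. Each step between lay in order. By GC content of the surrounding 1 Mb there was no such order, with median shifts between -0.9 and 1.0. When fold over background was ranked in place of q, the outer groups had median shifts of 1.9 and -0.3. On that measure 10.2% of the CpG-poorest moved up against 3.98% of the richest, while the order of the down moves turned, with 7.52% and 6.33%. With percentiles of the whole list, both outer groups rose, with median shifts of 12.2 in the poorest and 3.5 in the richest. There 24.3% and 6.89% moved up, and the down moves again turned, with 0.279% and 0.0796%. The median CpG content was 3.9 for beta cell secretion genes, 6.3 for the other general factors and 6.3 over all genes called in both lists. Lists did not follow it throughout, since calcium signalling genes had 8.0, proteasome genes 5.65 and respiratory chain genes 6.1.

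**Figure D4:**
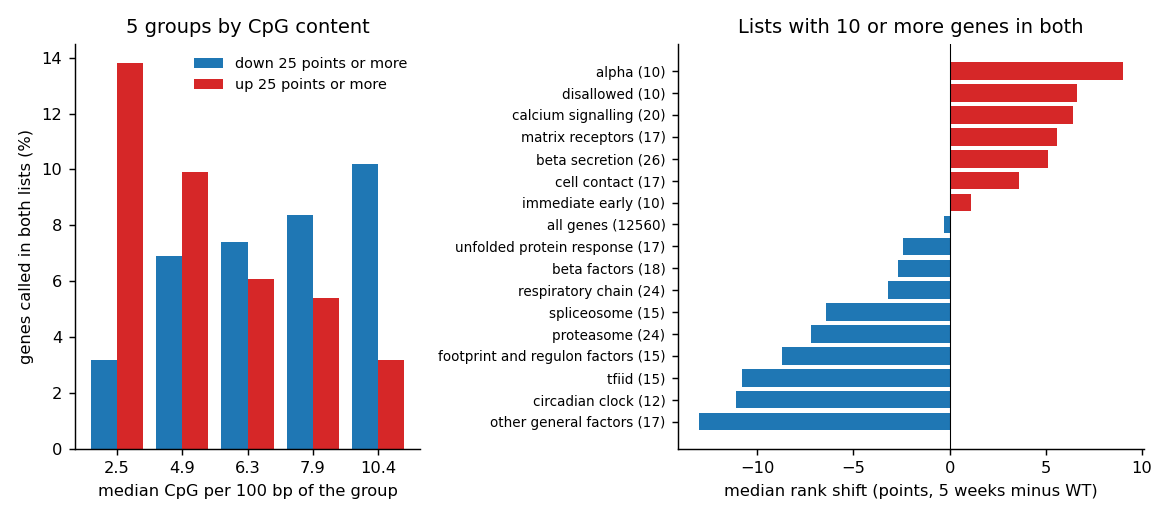
On the left, share of genes called in both lists whose promoter rank moved by 25 points or more, down (blue) or up (red), in 5 groups of 2512 genes by CpG content. The share moving up falls from 13.8% to 3.18% and that moving down rises from 3.18% to 10.2%. The order of down moves turned with fold or with percentiles of the whole list. On the right, the median rank shift of each gene list with 10 or more genes in both, with their number, from -13.0 for other general factors to 9.0 for alpha cell genes. All genes stand at -0.3. Disallowed genes are those normally silent in beta cells, and the footprint and regulon factors are ones the study named from its own libraries, so that list is not independent of them.

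The largest single moves were of 2 kinds. Downward, Akr1c12, of a cluster of similar aldo-keto reductase genes, went from 27.7 to 7.87, a shift of -75.4. Ankrd17, an ankyrin repeat gene that shares its promoter with Gm9958, went from 22.6 to 7.04, and its 5-week peak was wider than that in WT, at 2520 bp against 585 bp. Upward, Cpeb4, which controls polyadenylation, went from 1.68 to 26.3, between peaks that did not overlap. Clybl, a mitochondrial lyase, went from 7.0 to 30.5, a shift of 69.4, and Aldh1a1, a retinaldehyde dehydrogenase, from 4.86 to 21.9, a shift of 63.5, with 21.0 at 1 week.

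Around beta cell genes, as around most genes, more distal peaks were kept than lost. Over the 20 beta cell factors, 19 of 154 distal WT peaks were lost, 12.3%, and over the 31 secretion genes 44 of 198, 22.2%, against 25.5% over all genes. The delta and progenitor lists lost 4.76% and 8.33%. Of the factor list 1 peak, near Foxo1, was firmly lost, and of the secretion list 0, against 570 of 38344 over all genes. The strongest distal peak of Iapp, 16330 bp upstream, had 33.0 in WT and 20.4 at 5 weeks, while the next, 8685 bp upstream, had 24.5 and 27.8, beside the promoter that went from 6.80 to 20.2. The strongest near Nkx6-1 had 26.4 and 33.4. Near Slc2a2 the peak 30312 bp upstream had 6.12 in WT and 26.3 at 5 weeks, and that 39375 bp upstream had 6.23 and 24.5. Near Prlr, 6 of 12 distal WT peaks were lost and near Glis3, a factor of insulin transcription, 6 of 15, none of them firmly.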

How the data were processed

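Open chromatin was measured by ATAC-seq in 3 libraries, and the 2 of WT and 5-week Taf4 KO islets were compared. Per the submitters' processing notes, the authors used bcl2fastq 2.17.1.14, aligned reads to mm9 with Bowtie 1.0.0 and called peaks in each library with MACS2 2.1.1. The deposited broad peak lists give a fold ratio over background, a -log10 p-value and a -log10 q-value, and no read counts, so depth was only estimated from fold and p. Chromosomes 1 to 19 were used, with starts of 21410 protein-coding genes from GENCODE vM1 on NCBIM37, the mm9 assembly. Peaks were shared at an overlap of 1 bp or more. Promoter windows ran from 1000 bp upstream to 100 bp downstream, and distal peaks were given to the nearest start within 100 kb. A gene was counted as moved at a shift of 25 percentile points.

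Motifs were searched on both strands in 300 bp windows at peak midpoints. The letters, beside those given with the results, were CAGCTG (an E-box), TGCTGAC for Maf factors, GCGCATGCG for NRF1, CCAATCA with the variant CCAATGA for NFY, CCGGAAG for ETS factors, GTTGCCA for RFX factors, and for CTCF the core CCACNAGAG with the variant CCACNAGGG. The letters TGAATCA are part of TGANTCA. Wilson 95% intervals were used. The members and lists were chosen with earlier results of these data known. Named genes were the Taf4 family, islet hormones and factors, list members with differing calls or, outside the beta, alpha and delta lists, the largest shifts, and the 10 strongest of each kind. Of those 3 lists, members that moved by 25 points but are outside this rule, such as Prlr, Ffar1, Gc and Etv1, and the other genes of the immediate early and general factor lists, were named after their values were seen. Calculations used Python 3.11.15, numpy 2.4.6, pandas 2.3.3 and scipy 1.17.1, and were tested on simulated peak lists. Alternatives changed the q minimum, list length, depth, overlap, promoter window, ranking measure and gene assignment. Some items are not reported here.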

Additional observations from a re-analysis of the deposited data

How the results depend on the processing

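The lists differ in depth and hold 1 library each, so presence depends on it and no error between animals can be given. With both lists limited to a -log10 q of at least 3 or 5, the share of distal WT peaks lost was 10.9% and 10.1%, firmly lost peaks numbered 233 and 149, firmly gained peaks 1208 and 1090, and genes with 50% or more of their distal peaks lost 28 and 9. At a minimum of 3, 119 promoters were lost. With the 5-week list cut to the WT length, 36.8% of distal peaks and 590 promoters were lost, 587 promoters were gained, the net was -3, 1497 peaks were firmly lost and 1113 genes had 50% or more lost. Scaled to the WT background depth, the values were 41.4%, 819, 416, -403, 1978 and 1395. A reciprocal overlap of 50% gave 45.7%, 3719 firmly lost, 5370 firmly gained and 1706 genes, and assigning peaks to gene bodies and 50 kb around them gave 1720 genes.

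The AP-1 share of firmly lost windows was 38.2% and 37.6% at the q minimums, 29.1% at equal length and 19% with reciprocal overlap, and, for letters chosen after seeing the data, 29.3% for TGACTCA, 7.39% for TGAATCA and 0.410% for the CRE. In shared windows it lay between 14.7% and 17.0%. Ranking among all peaks of the own list gave 15 genes down and 1483 up. Of 48 named genes past 25 points, 38 stayed past 25 points when ranked by fold and 12 by own-list percentile. The other 10 and 36 had smaller shifts in the same direction, with 0 reversed. The median shift of beta cell factors, -2.7, became 7.5 at a q minimum of 5 and 0.3 in a wider promoter window, and that of respiratory chain genes, -3.2, became 0.7 at a q minimum of 5. In the wider window the alpha median went from 9.0 to 4.0, the calcium median from 6.4 to 1.9 and the proteasome median from -7.2 to -4.5, and at a q minimum of 3 the calcium median was 10.7. The cause was not tested. No paired analysis was possible because each group holds 1 library.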

Other observations

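Several gene lists had more distal peaks at 5 weeks, as the longer list did over all genes. The 19 genes of the cell contact list, which holds cadherins and other adhesion molecules, had 96 distal peaks in WT and 298 at 5 weeks, a ratio of 3.1 against 2.1 over all genes, and 13 were firmly gained, against 1930 of 80550 over all genes. The ratio was as high or higher in unrelated lists, at 3.12 for genes of other tissues, 3.4 for immune, 4.71 for endothelial and 4.83 for acinar genes. Of 28 matrix receptor genes, 17 had a promoter call in WT and 25 at 5 weeks, with 67 and 188 distal peaks, beside 12793 and 14254 calls among all 21410 genes and 19.7% gained of those uncalled in WT. The 13 genes normally kept silent in beta cells had 10 and 12 promoter calls and 54 and 165 distal peaks. The 17 genes of the unfolded protein response were all called in both lists, with a median rank shift of -2.4 and 45 and 52 distal peaks. The 12 progenitor genes had 9 and 11 calls and lost 4 of 48 distal peaks, 8.33% against 25.5% over all genes.

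Lost peaks were sometimes neighbours. At the Ugt1a locus, whose genes encode enzymes that conjugate bilirubin and drugs, 7 WT distal peaks in a row were lost between chr1:89977642-90032209, 4 of them firmly, with a highest -log10 q of 5.07. Across the Hoxb cluster, chr11:96014625-96228665, 9 in a row were lost, 0 of them firmly, with a highest of 2.37.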
